A study of Mus musculus with 8 samples.

Results

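Type I interferons induce a large set of antiviral genes, and 40 of the best known of these interferon-stimulated genes were followed in mouse peritoneal macrophages that received LPS. The genes were listed by name, and a gene probe of the array was assigned to one of them through its RefSeq identifier. Where a gene had several probes, the one with the highest mean intensity over all arrays was used. In all, 38 of the 40 genes were measured, among 37020 genes and transcripts on the array. Mx1 and Mx2 were not analysed here. Adherent peritoneal cells of C57BL/6 background came from LysMCre-fur(fl/fl) mice (KO) or from their wild-type littermates (WT). In the KO mice, Cre is expressed from the lysozyme M (Lyz2) locus and deletes floxed Furin in LysM+ myeloid cells, so any other cell in the culture keeps the gene. The macrophages were left unstimulated or received LPS at 1 μg/ml for 1, 4 or 24 h. Each of the 4 conditions had 2 biological replicates of each genotype, and KO and WT RNA of a replicate were hybridised together on 1 of 8 arrays, with Cy5 on KO in replicate 1 and on WT in replicate 2. Replicate number and dye orientation are therefore the same factor and cannot be told apart. The labels do not say how many animals made up a replicate, so the p-values measure the spread between these samples.

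LPS is sensed by TLR4 with its partners CD14 and MD-2 (Ly96). One of its branches, through the adaptor TRIF (Ticam1), the kinases TBK1 and IKKε (Ikbke) and the transcription factor IRF3, switches on the gene of interferon-β (Ifnb1). The secreted interferon binds the receptor chains IFNAR1 and IFNAR2, and the kinases JAK1 and TYK2 then activate a transcription factor complex that includes STAT2 and IRF9. The complex binds the interferon-stimulated response element (ISRE) in promoters. IRF3 recognises closely related sequences, and some antiviral genes can be switched on by IRF3 without interferon. The protein products block viral RNA translation, degrade or edit nucleic acids, sense viral RNA or DNA, hold virions at the membrane, or modify other proteins with the ubiquitin-like ISG15.

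Promoter sequences are shown first because all 38 genes were higher after 4 h of LPS in WT. They come from RefSeq (GRCm38.p6), which gave promoters of 300 bases for 30 of the 40 genes. The letters GAAA, any 2 bases and GAAA again, the core of an ISRE, were searched on both strands. They were found for 14 of these 30 genes (46.7%). Counted by promoter, since some genes have several, 15 of 37 held them (40.5%), against 3.44% of all 32851 promoters. The 160 bases before the transcript start are printed below for 6 genes that hold the motif in this window and for 2 strongly responding genes, Oasl1 and Cmpk2, that do not. Each sequence is given 5′ to 3′ on the gene's strand, and capitals mark the motif, which reads as TTTC, 2 bases and TTTC where it lies on the opposite strand.
Isg15 (chr4:156200819-156200978, minus strand): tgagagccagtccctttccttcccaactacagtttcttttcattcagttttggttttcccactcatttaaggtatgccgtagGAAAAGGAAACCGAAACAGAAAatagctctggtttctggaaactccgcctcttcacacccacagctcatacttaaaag
Ifit1 (chr19:34640729-34640888, plus strand): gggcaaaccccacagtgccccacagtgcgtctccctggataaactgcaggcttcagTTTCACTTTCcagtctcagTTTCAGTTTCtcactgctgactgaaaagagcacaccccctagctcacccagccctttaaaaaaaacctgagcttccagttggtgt
Ifit3 (chr19:34583369-34583528, plus strand): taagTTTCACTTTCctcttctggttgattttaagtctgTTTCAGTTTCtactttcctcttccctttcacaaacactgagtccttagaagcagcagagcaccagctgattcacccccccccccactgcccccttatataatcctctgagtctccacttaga
Rsad2 (chr12:26456453-26456612, minus strand): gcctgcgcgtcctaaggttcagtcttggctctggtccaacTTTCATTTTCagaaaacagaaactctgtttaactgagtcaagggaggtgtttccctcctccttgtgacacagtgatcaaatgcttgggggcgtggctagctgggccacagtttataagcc
Oas3 (chr5:120777660-120777819, minus strand): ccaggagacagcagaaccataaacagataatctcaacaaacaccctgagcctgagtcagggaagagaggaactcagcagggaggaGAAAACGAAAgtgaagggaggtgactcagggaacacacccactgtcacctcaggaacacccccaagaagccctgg
Bst2 (chr8:71537473-71537632, minus strand): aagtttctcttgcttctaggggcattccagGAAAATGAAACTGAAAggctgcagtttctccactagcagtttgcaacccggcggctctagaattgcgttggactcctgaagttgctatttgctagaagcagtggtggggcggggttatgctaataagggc
Oasl1 (chr5:114923080-114923239, plus strand): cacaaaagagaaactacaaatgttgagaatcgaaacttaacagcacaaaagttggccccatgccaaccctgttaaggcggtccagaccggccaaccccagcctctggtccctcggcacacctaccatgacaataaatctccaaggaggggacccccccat
Cmpk2 (chr12:26469055-26469214, plus strand): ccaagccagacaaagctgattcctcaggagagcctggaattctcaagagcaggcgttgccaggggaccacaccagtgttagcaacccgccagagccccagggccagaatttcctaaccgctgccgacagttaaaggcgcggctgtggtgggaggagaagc
Isg15 carries 3 overlapping copies of the motif, the first from base -78 to base -69 before the start. Ifit1 and Ifit3 carry 2 copies each on the opposite strand, and Rsad2 carries 1, from base -120 to base -111. Bst2 has 2 overlapping copies. A match of letters is a description and not a binding site. Among the genes with a promoter in the table, the 14 with the ISRE letters had a median log2 change of 4.10 after 4 h of LPS in WT, and the 16 without them 4.12.

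Of the 38 genes, 36 were well above background in all 16 channels. The exceptions, Oas1g and Ifi44, were not well above background in unstimulated WT macrophages, and no probe was saturated. Between 43.8% and 51.3% of the gene spots were well above background in a channel. Furin had KO/WT ratios below 0 on both arrays at 0, 1 and 24 h (log2 -0.59 and -0.85, -0.56 and -0.55, and -0.59 and -0.69). At 4 h it had none below 0 (0.00 and 0.33), and the files do not say whether the probe lies in the deleted part. The 4 h samples are therefore called the libraries labelled KO below. With the replicate number as a block, Furin was called lower in KO at 0, 1 and 24 h (adjusted p = 0.0123, 0.0476 and 0.0227, against 0.163, 0.458 and 0.185 without the block). Lyz2, whose locus carries Cre, had KO/WT ratios below 0 on all 8 arrays, of -1.04 and -1.13 at 4 h. All 8 measured macrophage markers were well above background in all channels. The B cell list was detected too (7 of 7 in all channels), as were the mast cell list (6 of 6) and 6 of 10 T and NK cell markers, among which Ncr1 and Klrb1c were never above background. Of the plasmacytoid dendritic cell markers, 5 of 6 were well above background in all channels, and Klk1 was never above it. S100a9, Ngp and Mpo of neutrophils were also never above background, while 2 of the 6 measured neutrophil markers were above it in all channels. In bulk RNA, fewer cells of a type and less RNA per cell cannot be told apart.

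The first question was how the genes responded to LPS over time. After 1 h in WT macrophages, 10 of the 38 genes were higher, 5 were lower and 23 did not pass the test, with a median log2 change of 0.10. Of all genes and transcripts tested, 3.38% were called higher and 5.12% lower in this comparison. In KO macrophages, 7 genes were higher and 8 lower after 1 h, with a median of -0.15, where 3.09% of all were called higher and 4.37% lower. The KO median was -0.06 without unstimulated replicate 1 and -0.03 with the mean of all probes of a gene, and the WT median was 0.01 without 1 h replicate 1 and 0.17 without 1 h replicate 2. A list of 15 early NF-κB target genes, such as Tnf, Il6 and Nfkbia, had all 15 members higher at this time, with a median log2 change of 6.05 in WT and 5.22 in KO. The NF-κB list was picked as early LPS genes, with earlier results of these data known, so its rise is no independent test. At this time 23 of the 38 antiviral genes did not pass the test in either direction.

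The 7 genes higher at 1 h in both genotypes were Isg15, Oasl1, Ifit1, Ifih1, Rsad2, Rtp4 and Parp14. Isg15, the ubiquitin-like modifier, stood at a log2 intensity of 10.54 and 10.70 in the WT replicates at rest and of 15.27 and 15.22 after 1 h. In KO it stood at 11.27 and 10.95 at rest and at 14.98 and 15.22 after 1 h. The replicates of rest and 1 h lay far apart in both genotypes, with a log2 change of 4.63 (SE 0.14, limma adjusted p = 2.44e-10) in WT and 3.99 (SE 0.14, adjusted p = 9.69e-10) in KO.

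Oasl1, an OAS-like protein that restrains translation of Irf7, went from 9.26 and 9.55 to 13.52 and 13.43 in WT, a log2 change of 4.07 (SE 0.156). In KO it went from 10.03 and 10.15 to 13.83 and 14.32, a change of 3.98. Ifit1, which binds viral RNA that lacks host cap methylation, went from 6.95 and 7.07 to 10.54 and 10.50 in WT. Its log2 change was 3.52 (SE 0.178) in WT and 3.34 in KO. Ifih1 encodes MDA5, a sensor of long double-stranded RNA, and rose by 3.02 (SE 0.153) in WT and 2.96 in KO (1.99 and 1.86 on its second probe). The other 3 genes rose less, Rsad2 by 2.31 and 1.98, Rtp4 by 1.94 and 1.08, and Parp14 by 0.61 and 0.62 in WT and KO. Cmpk2, Herc6 and Isg20 passed the test at 1 h in WT, with log2 changes of 0.69, 0.65 and 0.49, and missed it in KO, with 0.34, 0.39 and 0.36. A second Herc6 probe, well above background in all 16 channels, changed by 0.10 in WT and 0.20 in KO, so the Herc6 call rests on 1 of its probes. With the replicate block Isg20 missed it in WT too (adjusted p = 0.0443, and 0.0521 with the block).

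The 5 genes lower at 1 h in both genotypes were Usp18, Tor3a, Trim21, Dtx3l and Parp9. Usp18 removes ISG15 from proteins and dampens the interferon receptor. Its WT replicates stood at 10.82 and 10.21 at rest and at 10.02 and 9.25 after 1 h, so that the groups did not overlap, with a log2 change of -0.88 (SE 0.247, adjusted p = 0.0424). In KO its change was -1.15 (adjusted p = 0.0105). Tor3a, an ATPase of the endoplasmic reticulum, changed by -0.79 and -0.85 in WT and KO. The E3 ligase Trim21 changed by -0.64 and -0.63. Parp9 and Dtx3l, which form a complex of an ADP-ribosyltransferase-like protein and a ubiquitin ligase, changed by -0.47 and -0.48 and by -0.62 and -0.74. Second probes of Dtx3l and Tor3a changed less, by -0.28 and -0.38 and by -0.52 and -0.66 in WT and KO. Parp9 lost its call in both genotypes with the block (adjusted p = 0.0486 and 0.0468, and 0.0582 and 0.0549 with the block). Oasl2, Xaf1 and Oas1a passed the test as lower in KO, with -0.65, -0.55 and -0.48, and not in WT, with -0.03, -0.25 and -0.07. Ifitm3, at -0.44 in KO, passed with the block alone (adjusted p = 0.166, and 0.0299 with the block).

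After 4 h, all 38 genes were higher in WT macrophages, where 15.5% of all genes and transcripts were called higher. Their log2 changes ran from 0.47 to 8.87 with a median of 4.13. In the libraries labelled KO, 37 of 38 were higher (16.2% of all), with a median of 3.94. In every gene of the 38, both 4 h samples were above both resting samples of the same label, as in 30% of all in WT and 29.6% in the libraries labelled KO. Samhd1 was the gene that missed the test in the libraries labelled KO, with a log2 change of 0.28 (adjusted p = 0.0965).

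**Figure D1:**
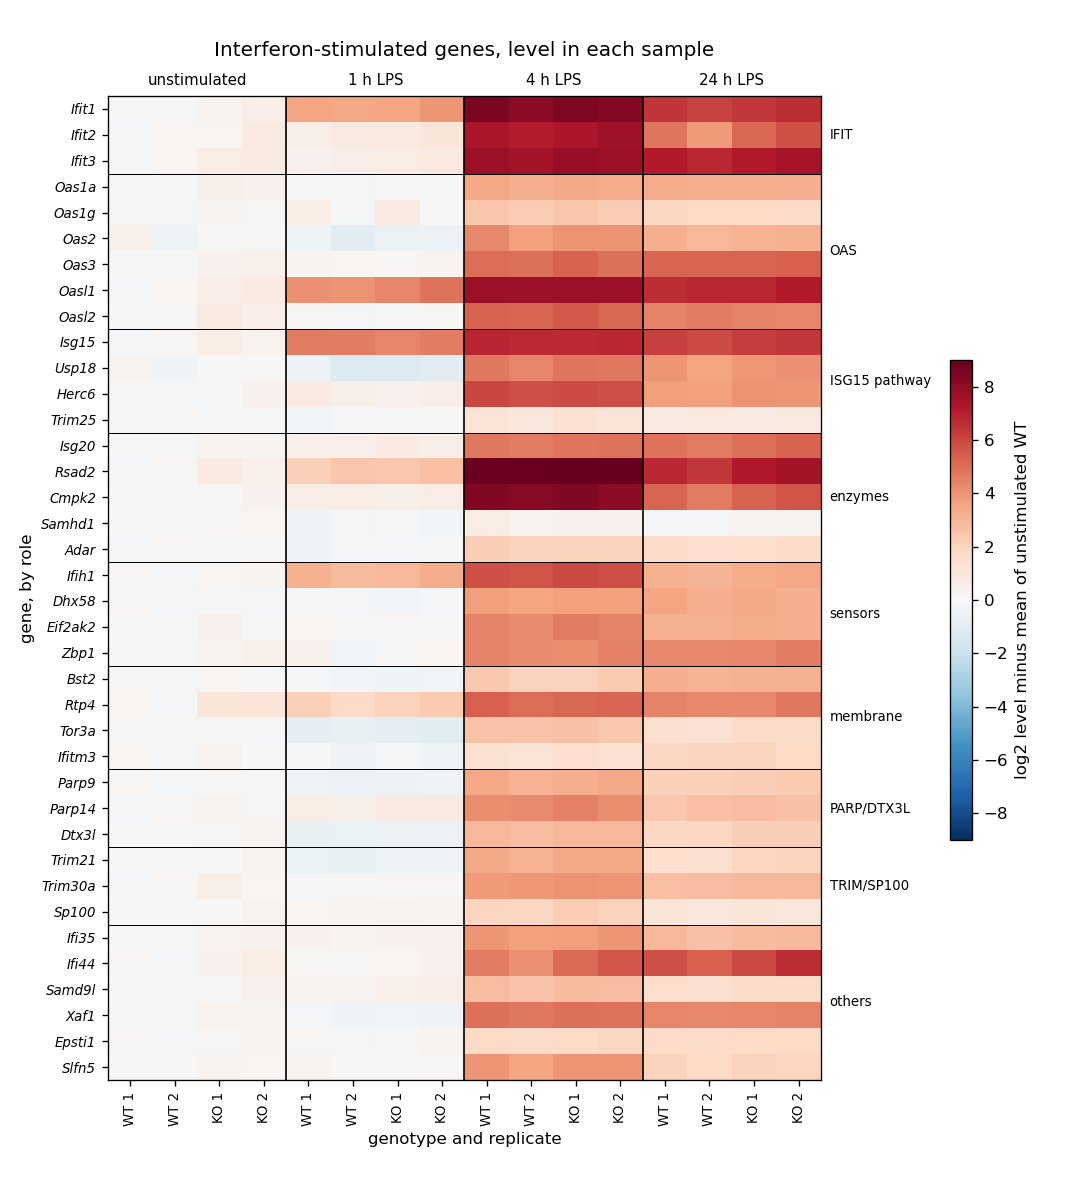
Log2 level of the 38 genes (rows, grouped by role) in each of the 16 samples (columns), drawn as the difference from the mean of unstimulated WT, with red above and blue below it. The 1 h columns are pale for most genes apart from rows such as Isg15, Oasl1, Ifit1 and Ifih1, and the 4 h columns are red in all rows, palest for Samhd1.

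The IFIT proteins bind foreign RNA and block its translation, and all 3 genes measured rose, with a median log2 change of 7.58 in WT, above the medians of the other roles (2.41 to 5.23). Ifit1 stood at 15.48 and 15.09 in WT after 4 h, 310-fold above rest, and at 15.39 and 15.30 in the libraries labelled KO, 236-fold above rest. Ifit3 went from 7.65 and 8.06 to 15.56 and 15.31 in WT, a log2 change of 7.58 (SE 0.16), and changed by 7.04 in the libraries labelled KO. Ifit2 changed by 7.18 (SE 0.3) in WT and 6.93 in the libraries labelled KO.

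OAS enzymes make 2′-5′-linked oligoadenylates on double-stranded RNA, which activate RNase L. The group also holds the OAS-like genes Oasl1 and Oasl2. All 6 measured members rose at 4 h in WT and in the libraries labelled KO. Oasl1 reached 17.15 and 17.14 in WT, a log2 change of 7.74, and changed by 7.01 in the libraries labelled KO. Oasl2, Oas3, Oas2 and Oas1a changed by 5.25, 5.00, 4.03 and 3.36 in WT. Oas1g was not well above background in unstimulated WT samples and was at least 4.37-fold higher after 4 h in WT and at least 4.26-fold higher in the libraries labelled KO. The bound sets the mean of the LPS samples against the lowest signal that was well above background on the arrays of the unstimulated samples, or the probe's own where that was higher.

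In the ISG15 pathway, Isg15 reached 17.48 and 17.33 in WT after 4 h and 17.34 and 17.37 in the libraries labelled KO. These were changes of 6.79 and 6.24 from rest. Herc6, the mouse E3 ligase for ISG15, changed by 5.90 in WT and 5.69 in the libraries labelled KO. Its second probe changed by 4.27 and 4.78, less and in the other order of the genotypes. The second Isg15 probe changed by 7.44 and 6.97. Usp18, lower at 1 h, was 23.7-fold above rest in WT at 4 h (15.27 and 14.90) and 26.2-fold in the libraries labelled KO. Trim25, a ubiquitin ligase that acts on the RNA sensor RIG-I, stood at 13.68 and 13.88 in WT at rest and changed by 1.08 in WT and 1.39 in the libraries labelled KO.

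Among the enzymes that act on nucleotides and nucleic acids, Rsad2 had the largest change of all 38 genes. It encodes viperin, which makes a chain-terminating nucleotide. Its WT samples stood at 7.89 and 8.10 at rest and at 16.82 and 16.91 after 4 h, a 469-fold difference (log2 8.87, SE 0.173, adjusted p = 1.09e-12). KO stood at 8.73 and 8.46 at rest and the 4 h libraries labelled KO at 17.07 and 16.97, a 344-fold difference. Cmpk2, a mitochondrial nucleotide kinase encoded next to Rsad2, was 304-fold above rest in WT and 243-fold in the libraries labelled KO. The exonuclease gene Isg20 changed by 4.70 and 4.55, and Adar, which edits adenosine in double-stranded RNA, by 2.14 and 1.98. Samhd1, a phosphohydrolase that depletes deoxynucleotides, changed the least, from 13.56 and 13.60 to 14.24 and 13.86 in WT (log2 0.47, adjusted p = 0.00651). A second, dimmer Samhd1 probe changed by 1.83 in WT and 1.92 in the libraries labelled KO, so the probes of this gene disagree on the size.

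All 4 sensors rose at 4 h. Ifih1 changed by 5.74 in WT and 5.64 in the libraries labelled KO (4.74 and 4.72 on its second probe), and Dhx58, which encodes the MDA5 and RIG-I regulator LGP2, by 3.65 and 3.74. Eif2ak2 encodes PKR, the kinase that halts translation on double-stranded RNA, and changed by 4.36 and 4.34. Zbp1, a sensor of Z-form nucleic acid, changed by 4.36 and 3.96 (5.26 and 4.86 on its second probe). Of the membrane genes, Rtp4, a chaperone of receptor transport, changed by 5.20 in WT and 4.07 in the libraries labelled KO. Tor3a changed by 2.57 and 2.62. Bst2 (tetherin, which holds budding virions) and Ifitm3 (which blocks viral fusion) changed by 2.26 and 1.25 in WT.

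Parp14, Parp9 and Dtx3l changed by 4.23, 3.33 and 2.89 in WT after 4 h, and by 4.20, 3.30 and 2.78 in the libraries labelled KO. Trim30a, Trim21 and the nuclear body gene Sp100 changed by 3.84, 3.27 and 1.91 in WT. Of the remaining genes, Xaf1, a pro-apoptotic factor, changed by 4.84 in WT and 4.67 in the libraries labelled KO. Its second probe, dimmer and above background in 8 of 16 channels, changed by 0.82 in WT. Ifi35, Slfn5, Samd9l and Epsti1 changed by 3.83, 3.73, 2.66 and 1.77 in WT. Ifi44 was not well above background in unstimulated WT and was at least 18.1-fold higher after 4 h.

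**Figure D2:**
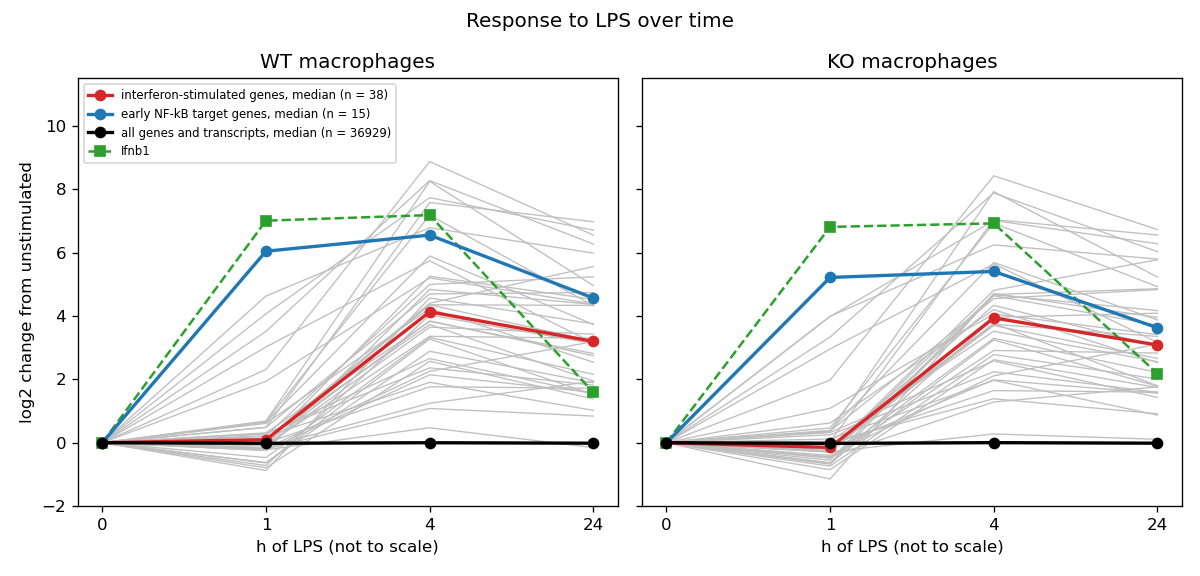
Log2 change from unstimulated macrophages after 1, 4 and 24 h of LPS (time not to scale) in WT (left) and KO (right, at 4 h the libraries labelled KO), with 1 grey line for each of the 38 interferon-stimulated genes, medians of these genes, of the 15 early NF-κB genes and of all 36929 genes and transcripts, and Ifnb1. The NF-κB median is at 6.05 in WT after 1 h, where the interferon-stimulated median is at 0.10, and the latter reaches 4.13 at 4 h.

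The 23 listed genes upstream of the response were all measured. Ifnb1 was not well above background at rest and stood at 13.22 and 12.97 in WT after 1 h, at 13.06 and 13.48 after 4 h, and at 7.71 and 7.63 after 24 h. It was at least 104-fold higher than rest in WT after 1 h, at least 116-fold after 4 h and at least 2.35-fold after 24 h. The bounds were 93.6-fold and 3.87-fold in KO after 1 and 24 h, and 102-fold in the 4 h libraries labelled KO. Of all 36929 genes and transcripts, 1250 were called higher and 1891 lower at 1 h in WT. At 4 h these were 5711 and 7112, and at 24 h 4976 and 6268. Of the list, 5 genes were higher and 2 lower at 1 h in WT, 15 higher and 4 lower at 4 h, and 9 higher and 5 lower at 24 h. With the replicate block Ticam2 was no longer among the genes lower at 4 h (adjusted p = 0.0479, and 0.0556 with the block). Irf7, the interferon-induced factor that amplifies interferon-α genes, changed by 0.33 after 1 h of LPS in WT, by 5.39 after 4 h and by 5.97 after 24 h. Stat2 and Irf9 were lower at 1 h in WT (-0.66 and -0.48) and higher at 4 h (2.62 and 1.83). Socs1, a feedback inhibitor of JAK kinases, changed by 5.67 at 4 h in WT. Ifnar1 was lower at 4 h, with -1.10 in WT and -1.13 in the libraries labelled KO.

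At 24 h, 37 of the 38 genes were still higher than at rest in WT (13.5% of all called higher), with a median log2 change of 3.20. In KO, 37 were higher too (12.7% of all), with a median of 3.08. Samhd1 did not pass in either genotype, at -0.15 in WT and 0.11 in KO, while its second probe was at 1.15 and 1.65, so that the probes differ in direction in WT at this time. Ifit3, Oasl1, Rsad2, Ifit1 and Isg15 had the largest changes, of 6.98, 6.71, 6.55, 6.27 and 5.99 in WT and of 6.56, 6.28, 6.73, 6.03 and 5.80 in KO.

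Set against 4 h, 27 genes were lower at 24 h in WT (14.6% of all called lower) and 3 were higher (15.1% of all called higher), with a median of -0.85. In KO, where the 4 h side is the libraries labelled KO, 28 were lower (15.1% of all) and 3 higher (15.6%), with a median of -0.77. Of these, 26 were lower in both genotypes. Without quantile normalization between arrays the median was -0.50 in WT and -0.49 in KO. Cmpk2 fell the most, with a log2 change of -3.29 in WT (SE 0.17, adjusted p = 1.1e-08) and -2.70 in KO. It went from 16.13 and 15.85 in the libraries labelled KO to 13.14 and 13.46 in KO at 24 h, and its WT samples ended at 13.03 and 12.52, so that the times did not overlap in either genotype. Ifit2, Ifih1, Rsad2 and Herc6 changed by -2.86, -2.60, -2.32 and -2.16 in WT. The second Herc6 probe was 4.27 above rest at 4 h and 3.87 at 24 h, a far smaller decline. Isg15 and Ifit3 changed by -0.80 and -0.61 in WT. A second Isg15 probe declined more, from 7.44 above rest at 4 h to 6.10 at 24 h in WT, and from 6.97 in the libraries labelled KO to 5.77 in KO.

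The 3 genes higher at 24 h than at 4 h were Ifi44, Bst2 and Ifitm3, both in WT and in KO against the 4 h libraries labelled KO. Ifi44 stood at 10.89 and 10.33 in WT after 4 h and at 11.98 and 11.55 after 24 h, without overlap (log2 1.16, SE 0.246, adjusted p = 0.00225), and at 24 h it was at least 41.2-fold above rest. Bst2 went from 14.96 and 14.64 to 15.83 and 15.64 in WT, a change of 0.94. Ifitm3 changed by 0.69 in WT and 0.48 in KO. For 6 genes (Isg20, Oas1a, Oas1g, Oas3, Zbp1 and Epsti1) neither genotype passed the test between 4 and 24 h, with WT changes from -0.55 for Oas1g to 0.24 for Oas3. With the replicate block Oas1g was lower at 24 h in both (adjusted p = 0.0332 in WT and 0.0129 in KO). The neutrophil list was S100a8, Camp and Ltf, with S100a9, Ngp and Mpo, which were never above background. At 24 h its summed level was between 14.5 and 15.9 on the log2 scale in WT, against 11.6 and 11.7 at rest. That of the mast cell list was between 10.8 and 11.6 in WT, against 13.0 and 13.5. That of the stromal and mesothelial list was 11.0 to 11.2 in WT, against 9.70 to 9.73 at rest, and at least 11.47 in KO, against at most 10.00, and that of the macrophage list 17.9 to 18.0 in WT, against 19.0 to 19.3. The part of these in the 24 h values was not tested.

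**Figure D3:**
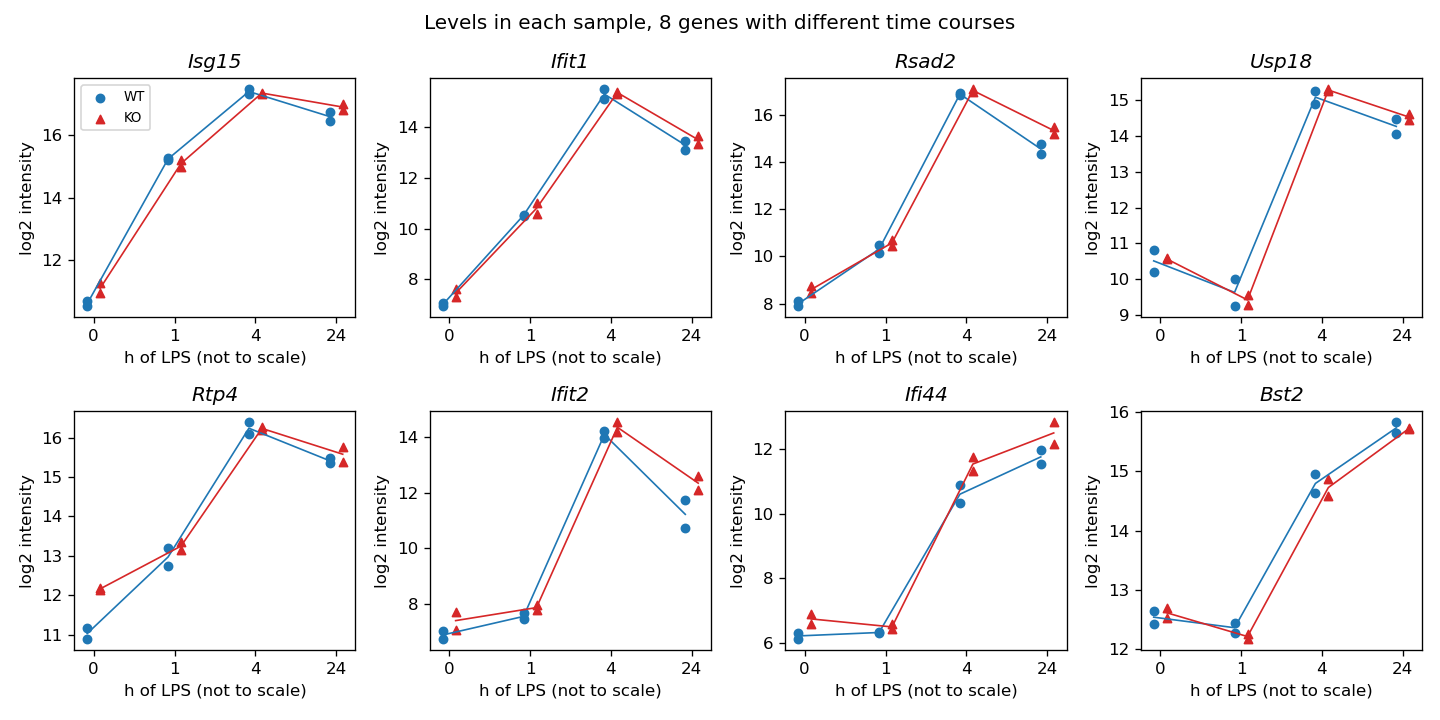
Log2 intensity of 8 genes in each WT (circles) and KO (triangles, at 4 h the libraries labelled KO) sample at 0, 1, 4 and 24 h of LPS (time not to scale), with lines through the group means. Isg15 and Ifit1 rise by 1 h, Usp18 dips at 1 h before its rise, Ifit2 falls after 4 h, and Ifi44 and Bst2 are highest at 24 h.

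The second question was whether the loss of Furin changed these genes. At rest, none of the 38 passed the limma test of KO against WT (0 called), and of all genes and transcripts 0% did. At an unadjusted p under 0.05, 12 of the 38 were counted, against 5.78% of all, and the methods' t-test with Benjamini-Hochberg adjustment called 0. That test also called 0 after 1 h of LPS, where limma called 15 in WT, so its 0 says little with 2 samples a group. The KO/WT ratio was above 0 for 35 of 38 genes, with a median log2 ratio of 0.22 over the genes, of 0.19 in replicate 1 and of 0.34 in replicate 2. The ratio was above 0 on both arrays for 29 of 38 genes, where 23.8% of all genes and transcripts had this, and below 0 on both arrays for Trim25. The median over all genes and transcripts was 0.00. With the replicate number as a block, which here also fits the dye, 5 of the 38 were called higher in KO, and 1.06% of all genes and transcripts were called in either direction.

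Rtp4 had the largest resting ratio. It stood at 11.18 and 10.89 in WT and at 12.15 and 12.18 in KO, so that the groups did not overlap. The log2 ratios of the arrays were 0.97 and 1.29 (mean 1.13, SE 0.188, adjusted p = 0.168, and 0.00146 with the replicate block). Oasl2 stood at 10.60 and 10.47 in WT and at 11.35 and 11.15 in KO, with a ratio of 0.72 (SE 0.115, adjusted p = 0.168, and 0.0123 with the block). Ifit3 and Oasl1 had ratios of 0.71 and 0.68 (adjusted p = 0.224 and 0.221, and 0.0306 and 0.0251 with the block). Oas1a had a ratio of 0.45 (adjusted p = 0.277, and 0.0304 with the block). Rsad2 stood at 7.89 and 8.10 in WT and at 8.73 and 8.46 in KO, with a ratio of 0.60. In 25 genes both KO levels were above both WT levels (14.8% of all), and in 0 both were below (5814 of all 36929).

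By role, the median resting ratio was 0.52 for the IFIT genes, 0.45 for the OAS genes, 0.25 for the nucleotide and nucleic acid enzymes, 0.23 for the sensors and 0.10 for the ISG15 pathway and for the membrane genes. The upstream list had a median of 0.08 with none of its genes called. With the block, Irf7 was called higher in KO (0.28 and 0.99, adjusted p = 0.0193) and Ikbke lower (-0.65 and -0.35, adjusted p = 0.0311). Ifnb1 was not well above background in either genotype. The early NF-κB list had a median of 0.68 at rest, with none of its 15 genes called. With the block, 3 of them were called higher in KO, namely Il1b at 1.34, Il6 at 1.25 and Ccl4 at 1.04 (adjusted p = 0.0155, 0.0304 and 0.00289). The median resting ratios were 0.39 for 6 mast cell markers, 0.21 for 7 B cell markers and 0.21 for 10 T and NK cell markers. They were 0.02 for 6 plasmacytoid dendritic cell markers and -0.08 for 8 macrophage markers, and no marker of these lists was called. Their part in the ratios of the antiviral genes was not tested.

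**Figure D4:**
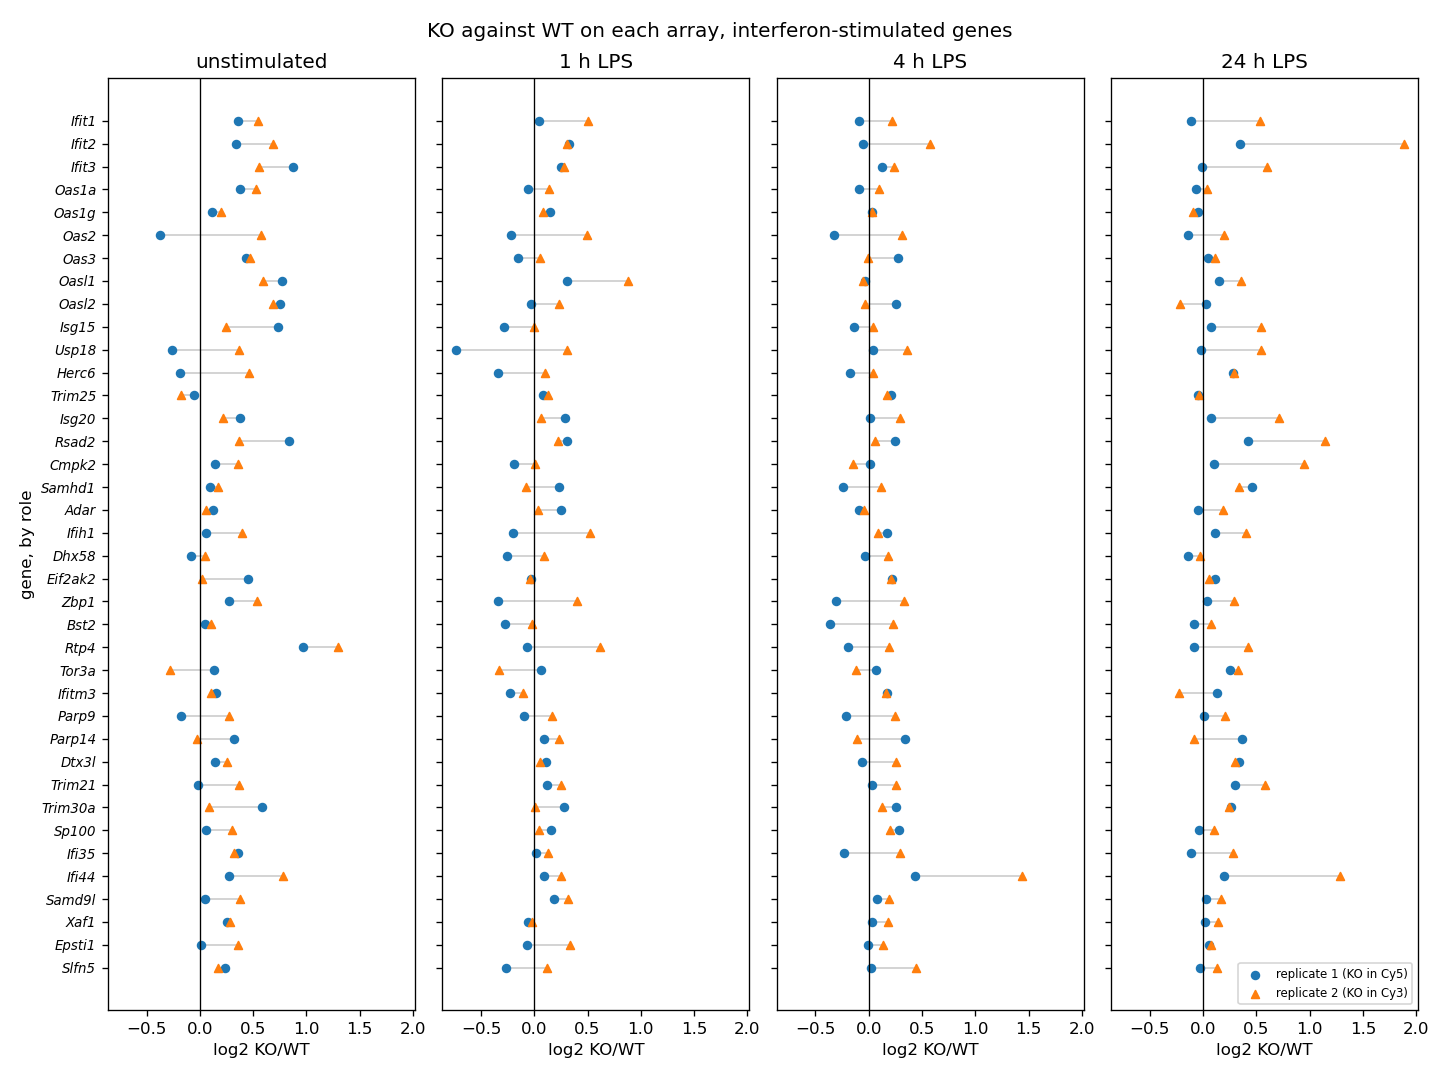
Log2 KO/WT ratio of the 38 genes (rows, by role) on the array of replicate 1 (circles) and of replicate 2 (triangles) at each time. At rest 29 genes lie right of 0 on both arrays, with Rtp4 farthest, and at 24 h Ifit2 and Ifi44 lie farther right in replicate 2 (1.89 and 1.29) than in replicate 1 (0.35 and 0.20).

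Under LPS the median ratio was closer to 0 at each time, a difference from rest that was not itself tested over the list. After 1 h, 0 of the 38 genes were called (0% of all, 2 of 38 at an unadjusted p under 0.05, against 5.48% of all), with a median ratio of 0.10 and 17 genes above 0 on both arrays (23.6% of all). The ratio was below 0 on both arrays for 5 (Isg15, Eif2ak2, Bst2, Xaf1 and Ifitm3), against 9164 of all 36949. The median was -0.01 in replicate 1 and 0.13 in replicate 2. Oasl1 had the largest ratio, with WT at 13.52 and 13.43 and KO at 13.83 and 14.32 (0.59, SE 0.137, adjusted p = 0.542). After 4 h, 0 were called (0.0135% of all, 2 of 38 at an unadjusted p under 0.05, against 4.3% of all), with a median of 0.10 and 16 genes above 0 on both arrays (22.1% of all). The ratio was below 0 on both arrays for 2 (Oasl1 and Adar), against 8287 of all 36949. The median was 0.02 in replicate 1 and 0.18 in replicate 2. Ifi44 had the largest ratio, at 0.43 and 1.44 in the libraries labelled KO (mean 0.94, adjusted p = 0.844, and 0.0176 with the block, which called 0.566% of all). Among the genes with ratios above 0 on both arrays, Sp100, Slfn5, Eif2ak2 and Usp18 followed with means of 0.24, 0.23, 0.21 and 0.20. The 7 genes with the largest LPS response in WT at 4 h had ratios of 0.15 for Rsad2, 0.06 for Ifit1, -0.07 for Cmpk2, -0.04 for Oasl1, 0.18 for Ifit3, 0.26 for Ifit2 and -0.05 for Isg15. The arrays of Rtp4 lay on either side of 0, at -0.20 and 0.19.

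After 24 h, 0 were called (0.0244% of all, 8 of 38 at an unadjusted p under 0.05, against 3.43% of all), with a median of 0.15 and 21 genes above 0 on both arrays (23.2% of all). The ratio was below 0 on both arrays for 3 (Oas1g, Dhx58 and Trim25), against 7994 of all 36949. The median was 0.04 in replicate 1 and 0.26 in replicate 2. Ifit2 stood at 11.73 and 10.72 in WT and at 12.08 and 12.60 in KO. Its array ratios were 0.35 and 1.89 (mean 1.12, SE 0.301, adjusted p = 0.674, and 0.0312 with the block, which called 0.585% of all), so most of the mean came from replicate 2. Ifi44 had 0.20 and 1.29 (adjusted p = 1, and 0.0491 with the block), Rsad2 0.42 and 1.14, and Cmpk2 0.10 and 0.94. Each of these 4 genes had the larger ratio in replicate 2. Trim21 followed, at 0.30 and 0.58. The methods' t-test called 0 of the 38 at 1, 4 and 24 h, with the same limit. Ifnb1 at 24 h had ratios of 0.78 and 0.63 (adjusted p = 0.65). Irf1, an interferon-induced factor, had 1.01 and 0.92 (adjusted p = 0.0907, and 0.00485 with the block). At this time the mast cell list had a median ratio of 0.66, and the macrophage list one of -0.15. The summed level of the macrophage list was 17.2 to 17.4 in KO and 17.9 to 18.0 in WT, a sum that holds Lyz2, the Cre locus, whose 24 h ratios were -1.85 and -1.61. Their part in the 24 h ratios was not tested.

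Averaged over the 4 times, 0 of the 38 genes were called by limma (0.566% of all, 19 of 38 at an unadjusted p under 0.05, against 3940 of all 36949), with a median of 0.14. Oasl1 came closest, at 0.37 (SE 0.0683, adjusted p = 0.0593), followed by Rsad2 at 0.45 (adjusted p = 0.0661) and Ifit3 at 0.36 (adjusted p = 0.0765). With the replicate block, which called 5.99% of all, 11 genes were called, all higher in KO, namely Ifit1, Ifit2, Ifit3, Oasl1, Oasl2, Rsad2, Ifi44, Rtp4, Trim21, Trim30a and Samd9l. This mean holds the 4 h libraries labelled KO. Without them, an alternative chosen after seeing the data, 0 genes were called without the block and 10 with it (4.75% of all), the same genes apart from Samd9l, with a median of 0.16. Without the array of replicate 1 at 24 h, 3 genes were called, and without that of replicate 1 at 1 h, 1 gene. The genes above 0 on all 8 arrays were Isg20, Rsad2, Ifi44, Trim30a and Samd9l. How many of all genes and transcripts had this was not counted, so whether it is unusual is not known. Ifi44 was not well above background in WT at 0 and 1 h, so its sign on those 4 arrays, and its part of the mean over the times, rest on a WT signal near background.

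The test of the difference in LPS response between the genotypes called 0 of the 38 genes at 1, 4 and 24 h, where 0% of all genes and transcripts were called at each time. At an unadjusted p under 0.05 the counts were 6, 7 and 4, against 1.39%, 2.9% and 3.33% of all. The median differences, KO minus WT, were -0.20 at 1 h, -0.14 at 4 h and -0.09 at 24 h. They moved with single arrays, to -0.32 at 1 h without 1 h replicate 2, to -0.05 and -0.24 at 4 h without 4 h replicate 1 and 2, to -0.23 at 4 h without unstimulated replicate 1, and to -0.01 and -0.17 at 24 h without 24 h replicate 1 and 2. They share the resting ratio, which was above 0 for most genes. Rtp4 had the largest difference at each time, -0.85, -1.14 and -0.96, where its ratio was 1.13 at rest. With the replicate block it was called at 4 h (adjusted p = 0.0219, 0.0325% of all called) and at 24 h (adjusted p = 0.0166, 0.211% of all called), and not at 1 h (adjusted p = 0.248). Oasl2 had differences of -0.62, -0.61 and -0.81, and its level in the 4 h libraries labelled KO (16.07 and 15.71) overlapped that in WT (15.82 and 15.75). Oasl1, Isg15 and Ifit3 had differences of -0.72, -0.54 and -0.54 at 4 h, with adjusted p = 1 for each. At 1 h Isg15 had -0.64, below Oasl2.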

How the data were processed

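RNA of KO and WT peritoneal macrophages was measured on 8 Agilent 2-colour arrays, in 16 channels. Per the file headers and the labels, the authors extracted the raw intensity of each spot with Agilent Feature Extraction 10.7.3, without normalization between arrays. They also deposited log2 ratios of Cy5 to Cy3, which were used as an alternative. Samples were grouped by their titles, since the growth protocol states 4 h of stimulation for every sample. Here, median intensities were corrected with normexp (offset 50) in limma 3.58.1, under R 4.3.3, then normalized by loess within and quantile between arrays, after spots marked as outliers (0.369% of gene spots) were left out. Of 37020 genes and transcripts, 36949 had a mean log2 intensity of at least 6. KO/WT ratios were fitted with lmFit and eBayes, and LPS responses with limma's separate-channel fit (statmod 1.5.0, within-spot correlation 0.106) for 36929. Benjamini-Hochberg adjustment ran over all of these, with calls at an adjusted p under 0.05. Level means the normalized log2 intensity, and levels of different genes were not compared. The fits without the block were checked on simulated data that held no replicate or dye effect, so the check does not cover the blocked fit. The number of arrays limits the precision, with an SE of 0.0848 to 0.301 for the resting ratios.

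Replicate numbers recur in every group. The replicate difference in the KO/WT ratio correlated between time points across genes, with r from 0.475 to 0.679 over 6 pairs of times. Dye orientation changed with the replicate number at every time, so these correlations cannot tell pairing from a dye effect. The numbers were taken to pair the samples, which was not tested apart from the dye. A fit that blocks on the replicate number, and so also on the dye, is given beside the results that it changed.

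The genes, the upstream list of 23, the early NF-κB list and the marker lists were chosen with earlier results of these data known. One gene of the upstream list is not reported here by name. All 40 genes were accounted for by role. Full statistics are given mainly for up to 5 genes with the largest rise and 5 with the largest fall among those called on both replicates alike, or, where none was called, for the 5 largest ratios of the same sign on both arrays. Alternatives were the software's processed signals, no background subtraction, other normalizations between arrays, other filters, the mean of a gene's probes, no within-spot correlation, the deposited ratios, the methods' t-test, leaving out each array and, added after seeing the data, the mean over the times without the 4 h arrays.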

Additional observations from a re-analysis of the deposited data

How the results depend on the processing

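In the fit with a replicate block, which also fits the dye, 5 of the 38 genes were called between KO and WT at rest, 0 at 1 h, 1 at 4 h, 2 at 24 h and 11 over the mean of the times (1.06%, 0.574%, 0.566%, 0.585% and 5.99% of all), and 1 for the difference in response at 4 h and at 24 h (0.0325% and 0.211% of all), where the fit without the block called 0. With the 4 h arrays left out of the mean of the times, chosen after seeing the data, the block called 10 and the fit without it 0. For the LPS responses it called 13 of 38 at 1 h in WT against 15, and 31 in WT and 32 in KO between 4 and 24 h against 30 and 31. It changed no call of the 38 genes other than those given beside the results. Leaving out each array in turn gave 0 to 3 calls over the mean of the times. Ifit2's difference in response at 24 h was 0.60 and reversed to -0.17 without replicate 2 at 24 h, and was 1.37 without replicate 1. The methods' t-test, gene by gene with Benjamini-Hochberg adjustment, called 0 genes at 1 h in WT and in KO, 17 in the libraries labelled KO at 4 h, 1 in WT and 12 in KO at 24 h, and 0 between 4 and 24 h in either genotype. It estimates each gene's spread from 2 samples a group. It called 27 in WT at 4 h. Of the other counts of called genes under an alternative, 278 stayed within 1.5 times the reported count. With 2 arrays a time, the SE of a difference in response at 4 h was 0.12 to 0.426, and Rtp4, at -1.14 (SE 0.266), still had an adjusted p of 1.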
